A study of Mus musculus with 6 samples.

Results

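Chemokine ligands are small secreted or membrane-anchored proteins that draw leukocytes along concentration gradients, and 10 of them that stromal cells such as fibroblasts can make were followed here: Ccl2, Ccl5, Ccl7, Ccl20, Cxcl1, Cxcl5, Cxcl10, Cxcl12, Cxcl16 and Cx3cl1. They were matched by gene symbol, and 9 of the 10 were among the 14408 genes of the expression table; Ccl20 was not listed. Of the 9, 8 had a mean of at least 1 FPKM (fragments scaled to gene length and to the library's total) and were tested, and Cxcl16 was below that level. By its labels, the study measured polyadenylated RNA of heart tissue, taken from the left ventricle. The mice were male C57BL/6J, given as 8 weeks old at the start. After induction of HFpEF (heart failure in which the ejection fraction is preserved), the L-proline group (3 libraries) had 300 mg/kg of L-proline injected into the peritoneum each day for 4 to 8 weeks, and the PBS group (3 libraries) had phosphate-buffered saline as vehicle. Both groups had the same induction, fat-rich chow together with the nitric oxide synthase inhibitor L-NAME at 0.5 g/L in the water, for 8 to 12 weeks. Whether each library came from a separate animal was not stated, so that the p-values rest on the spread from library to library, and this may be technical.

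The 2 best known routes to chemokine transcription run through NF-kB, a factor activated by tumour necrosis factor, interleukin 1 and microbial products, and through interferon, whose receptors activate factors that bind interferon-stimulated response elements. Cxcl10 and Ccl5 are known targets of interferon and IRF factors as well as of NF-kB, and are called interferon-linked below. Ccl2, Ccl7, Ccl20, Cxcl1 and Cxcl5 are known mainly as NF-kB and cytokine targets and are called NF-kB-linked. Cxcl12 is a homeostatic ligand made by mesenchymal cells, while Cxcl16 and Cx3cl1 (fractalkine) are made as membrane proteins and are released by cleavage.

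The promoters of Cxcl10, Cxcl1 and Cx3cl1 are shown because these genes stand for an interferon-linked member, an NF-kB-linked member and a member that fell. Each is the RefSeq sequence of build GRCm38.p6 from 250 bases before to 50 bases after the start of the gene, 5′ to 3′ on the gene's own strand, and capitals mark matches to the interferon-stimulated response element core (GAAA, any 2 bases, GAAA) or to the kappaB consensus, searched on both strands. Cxcl10 lies on the minus strand at chr5:92348840-92349139, Cxcl1 on the plus strand at chr5:90890995-90891294 and Cx3cl1 on the plus strand at chr8:94771930-94772229.
Cxcl10: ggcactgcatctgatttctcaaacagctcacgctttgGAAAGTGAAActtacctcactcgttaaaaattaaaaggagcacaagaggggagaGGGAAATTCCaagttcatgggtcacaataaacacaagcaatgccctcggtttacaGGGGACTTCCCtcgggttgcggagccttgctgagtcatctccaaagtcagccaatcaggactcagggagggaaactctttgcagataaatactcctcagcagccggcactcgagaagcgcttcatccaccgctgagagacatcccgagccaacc
Cxcl1: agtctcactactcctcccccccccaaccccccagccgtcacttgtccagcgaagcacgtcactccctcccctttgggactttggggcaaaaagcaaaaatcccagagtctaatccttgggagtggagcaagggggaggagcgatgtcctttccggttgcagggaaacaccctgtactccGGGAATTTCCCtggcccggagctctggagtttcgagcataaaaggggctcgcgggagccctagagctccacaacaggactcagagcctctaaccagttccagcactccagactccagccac
Cx3cl1: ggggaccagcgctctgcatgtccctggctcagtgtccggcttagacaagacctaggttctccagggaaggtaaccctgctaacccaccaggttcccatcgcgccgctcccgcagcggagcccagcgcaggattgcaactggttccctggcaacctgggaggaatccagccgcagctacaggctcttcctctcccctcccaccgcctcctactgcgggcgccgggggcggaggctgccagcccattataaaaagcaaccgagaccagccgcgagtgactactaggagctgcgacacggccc

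The Cxcl10 window held the response element core, beginning 213 bases before the start, and kappaB matches beginning 159, 104 and 103 bases before it, the last of which read as a match on both strands. The Cxcl1 window held overlapping kappaB matches on opposite strands, beginning 71 and 70 bases before the start, and no match to the response element core. Neither motif was matched in the windows of Cx3cl1 and Cxcl12, and the gamma-activated site TTCNNNGAA was matched in none of these 4 windows. Of 32851 promoters of this length in the table, 3.44% held the response element core, 8.46% the kappaB consensus and 8.3% the gamma-activated site. Such matches describe letters and do not show binding. Ccl2, Ccl5, Ccl7, Cxcl5 and Cxcl16 had no entry. The window of Ccl20 held 1 kappaB match, beginning 80 bases before the start. In the window of Ccl8, a further ligand described below, none of these motifs was matched.

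The libraries held 34990473 to 37498030 fragments, as solved from the FPKM values, so that a gene of 1 kb seen in 0 fragments could lie at up to 0.0800 to 0.0857 FPKM (3 fragments, counting error only). Libraries of the same group differed by more than counting noise, at 8.08 to 82.8 chi-square units per degree of freedom. Across 10500 tested genes, 788 were higher and 1268 lower in L-proline (limma on log2(FPKM + 1), Benjamini-Hochberg adjusted p under 0.05), a split that became 1003 (9.55%) and 966 (9.2%) with median-of-ratios scaling and 1079 (10.3%) and 1015 (9.67%) with quantile normalization. Against the labelled tissue, 7 of 14 cardiomyocyte markers were listed and 2 were tested: troponin T (Tnnt2), at 13.6 to 16.3 FPKM in L-proline libraries and 31.4 to 32.9 FPKM in PBS libraries, and the cardiac factor Nkx2-5, at 3.00 to 3.60 FPKM in L-proline libraries and 3.18 to 3.63 FPKM in PBS libraries. Ttn, which encodes titin, was at most 0.00880 FPKM in these libraries, and Myh6, Actn2, Actc1, Myl3, Pln, Nppa and Mybpc3 were absent from the table. Most cardiomyocyte markers were thus near 0 or absent, against the label of left ventricle, and which cells the libraries held was not tested. Of 12 fibroblast markers 9 were listed, with summed levels of 6463 to 6789 FPKM in L-proline libraries and 6203 to 6445 FPKM in PBS libraries. Most of these sums came from Vim, Col3a1 and Fn1, which other cell types can also express. Pdgfra was at 5.86 to 6.12 FPKM in L-proline libraries and 7.32 to 8.22 FPKM in PBS libraries, and Lum, Tcf21 and Thy1 were not listed. Of the leukocyte markers the highest was Cd14, a receptor of monocytes and macrophages, at 14.3 to 17.7 FPKM over the libraries. In bulk RNA, fewer cells of a type and less RNA per cell cannot be told apart.

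Interferon-linked chemokines were higher with L-proline, and NF-kB-linked ones were higher by less or did not pass. Of the 8 tested members 4 rose and 1 fell, where 7.5% of all tested genes rose and 12.1% fell (19.6% in either direction). In all 5 the groups did not overlap, as was so for 16% of all tested genes with L-proline higher and 24% with L-proline lower (40.1% in all). Those that rose were Cxcl10 and Ccl5, which are interferon-linked, and Ccl7 and Cxcl1, which are NF-kB-linked, while Cx3cl1 fell. Ccl2, Cxcl5 and Cxcl12 did not pass. The median log2 fold change was 1.39 for the 2 interferon-linked members, 0.24 for the 4 tested NF-kB-linked members and -0.18 for Cxcl12 and Cx3cl1, beside -0.06 over all tested genes.

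**Figure D1:**
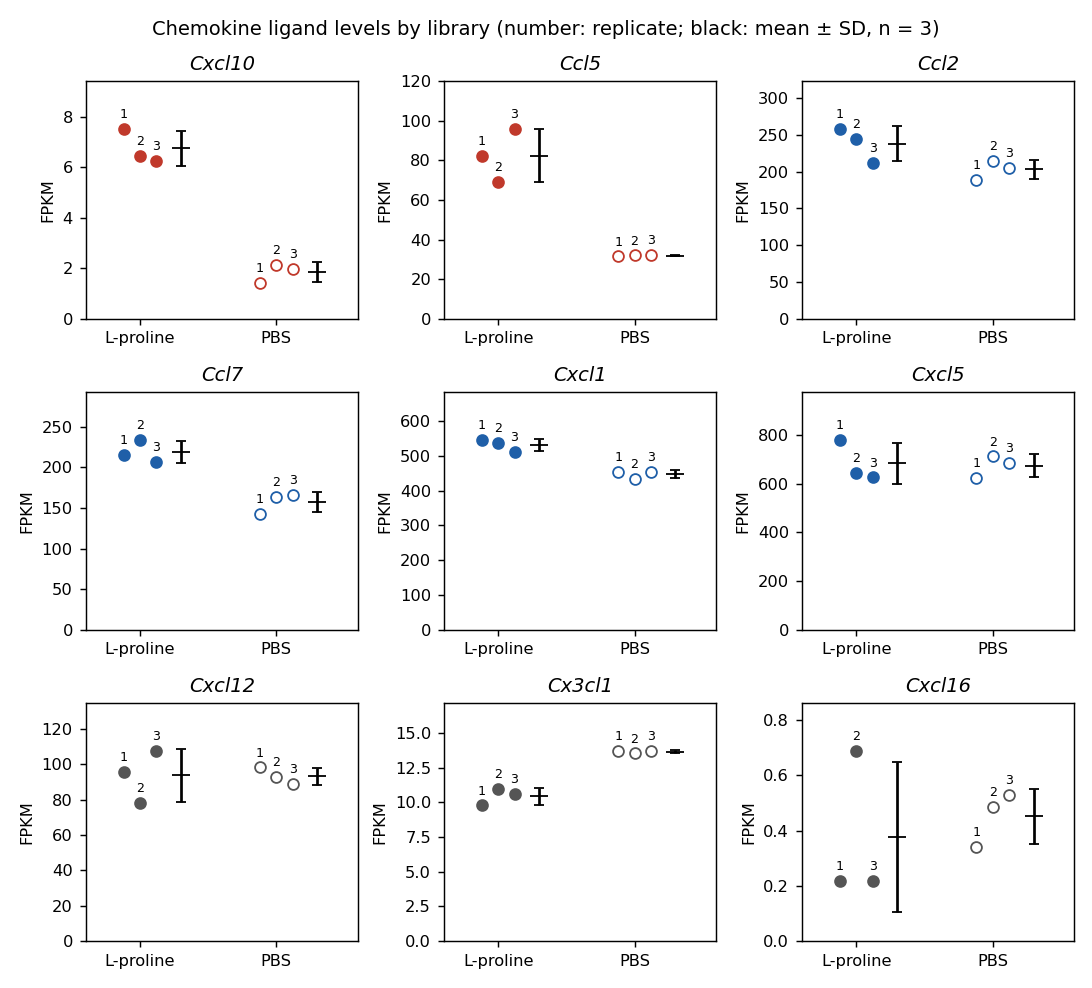
FPKM of the 9 listed members in each library, with the L-proline group on the left (filled) and the PBS group on the right (open), the replicate number above each point and the mean ± SD (n = 3) in black. Red marks interferon-linked, blue NF-kB-linked and gray the other members; the 3 L-proline points lie above all PBS points for Cxcl10, Ccl5, Ccl7 and Cxcl1 and below them for Cx3cl1.

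Cxcl10, the ligand of CXCR3 on activated T cells and NK cells, had 7.55, 6.46 and 6.27 FPKM in L-proline 1, 2 and 3, against 1.4, 2.15 and 1.98 FPKM in PBS 1, 2 and 3. The lowest L-proline library lay well above the highest PBS library. The means were 6.76 ± 0.686 and 1.84 ± 0.390 FPKM (SD, n = 3 each), 3.67-fold higher in L-proline as a ratio of means, and the log2 fold change on the log2(FPKM + 1) scale was 1.45 ± 0.12 (SE; limma, adjusted p = 0.000423). That scale understates the change of a gene at this level: with a pseudocount of 0.1 the log2 fold change was 1.84, and with voom on whole fragments 1.90. The level rested on 305, 249 and 254 fragments in L-proline and 58, 85 and 80 in PBS. Cxcl10 lies within the span of Art3, a gene at no more than 0.243 FPKM in any of the libraries.

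Ccl5, also called RANTES, which attracts T cells and monocytes, had 82.1, 69.0 and 96.1 FPKM in L-proline libraries, against 31.4, 32.0 and 32.1 FPKM in PBS libraries. The PBS libraries were nearly equal and the L-proline libraries spread more widely, with no overlap. The means were 82.4 ± 13.5 and 31.8 ± 0.338 FPKM (SD, n = 3 each), 2.59-fold higher in L-proline, and by 1.33 ± 0.11 on the log2 scale (SE; limma, adjusted p = 0.000417). Ccl5 and Cxcl10 remained called in all 13 alternative settings. T and NK cells are a known source of Ccl5. Of 12 markers of these cells only Cd8a was listed, at no more than 0.0682 FPKM in any library, and Cd3e, Cd3d, Cd3g, Trac and Nkg7 were not listed.

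Among NF-kB-linked ligands, Ccl7 (MCP-3), which recruits monocytes through CCR2, stood at 216, 234 and 207 FPKM in L-proline libraries, against 143, 164 and 166 FPKM in PBS libraries. The groups did not overlap. The means were 219 ± 13.8 and 157 ± 12.6 FPKM (SD, n = 3 each) and the log2 fold change was 0.47 ± 0.08 (limma, adjusted p = 0.00674), called in all 13 alternative settings. Cxcl1, a neutrophil attractant acting on CXCR2, had 547, 537 and 512 FPKM in L-proline libraries and 454, 434 and 455 FPKM in PBS libraries. Its groups did not overlap either, and its change was small, with means of 532 ± 18.1 and 447 ± 11.9 FPKM and a rise of 0.25 ± 0.06 on the log2 scale (limma, adjusted p = 0.0253). The call on Cxcl1 was lost with quantile normalization (adjusted p = 0.1), without L-proline 2 (0.0738) and without PBS 1, PBS 2 or PBS 3 (0.0945, 0.0730 and 0.0930).

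Ccl2 (MCP-1), the main monocyte attractant and neighbour of Ccl7, had 258, 244 and 211 FPKM in L-proline libraries, against 188, 215 and 205 FPKM in PBS libraries. L-proline 3 lay below PBS 2, so the groups overlapped. The log2 fold change was 0.23 ± 0.09, with a 95% interval of 0.02 to 0.44 (limma, adjusted p = 0.117), and without L-proline 3 it was 0.31 (adjusted p = 0.0404). Cxcl5 (LIX), a second ligand of CXCR2 and the most abundant member, had 781, 645 and 626 FPKM in L-proline libraries and 622, 712 and 687 FPKM in PBS libraries. The groups overlapped, with a log2 fold change of 0.02 ± 0.10 and a 95% interval of -0.21 to 0.24 (limma, adjusted p = 0.920). That interval does not include a change as large as that of Ccl5 or Cxcl10.

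Cxcl12, which holds CXCR4-bearing cells in tissue, had 95.8, 77.9 and 108 FPKM in L-proline libraries, against 98.2, 92.7 and 88.8 FPKM in PBS libraries. The L-proline libraries lay on either side of the PBS libraries. The log2 fold change was -0.00 ± 0.11 with a 95% interval of -0.27 to 0.26 (limma, adjusted p = 0.990). Cx3cl1, which binds CX3CR1 on monocytes, microglia and some T cells, was the member that fell, with 9.79, 11.0 and 10.6 FPKM in L-proline libraries and 13.7, 13.5 and 13.7 FPKM in PBS libraries. Every L-proline library was below every PBS library. The means were 10.5 ± 0.601 and 13.7 ± 0.103 FPKM (SD, n = 3 each) and the log2 fold change was -0.36 ± 0.07 (limma, adjusted p = 0.0141), with adjusted p = 0.0640 without PBS 1 and 0.0763 without PBS 3. Cxcl16, the ligand of CXCR6, had 0.219, 0.689 and 0.219 FPKM in L-proline libraries, from 12, 36 and 12 fragments, against 0.339, 0.485 and 0.529 FPKM in PBS libraries, from 19, 26 and 29 fragments. Its groups overlapped, and it was tested only where no filter on low values was applied, at -0.09 ± 0.13 on the log2 scale (limma, adjusted p = 0.681).

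**Figure D2:**
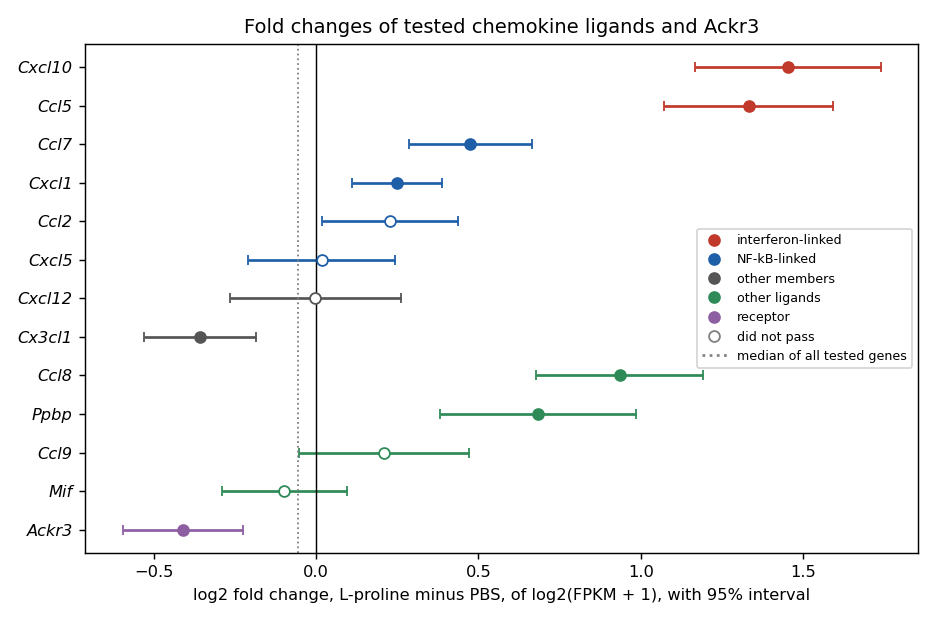
Log2 fold changes of log2(FPKM + 1), L-proline minus PBS, with 95% intervals, for the 8 tested members, the 4 other tested ligands and Ackr3; filled points passed an adjusted p of 0.05 and the dotted line is the median of all tested genes at -0.06. Cxcl10 at 1.45 and Ccl5 at 1.33 lie to the right of the NF-kB-linked members, of which Ccl7 is highest at 0.47.

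Because FPKM depends on how a library was scaled, each interferon-linked member was also divided by each NF-kB-linked member within the same library, which removes the scaling. All 8 such ratios were higher in every L-proline library than in every PBS library, by 0.88 to 1.88 on the log2 scale; these ratios share genes and are given as a description. Cxcl10 over Cxcl1 was 0.0138, 0.0120 and 0.0123 in L-proline 1, 2 and 3, against 0.00310, 0.00496 and 0.00435 in PBS 1, 2 and 3. Ccl5 over Ccl2 was 0.318, 0.283 and 0.454 in L-proline libraries, against 0.167, 0.149 and 0.156 in PBS libraries. The smallest difference of the 8 was that of Ccl5 over Ccl7.

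**Figure D3:**
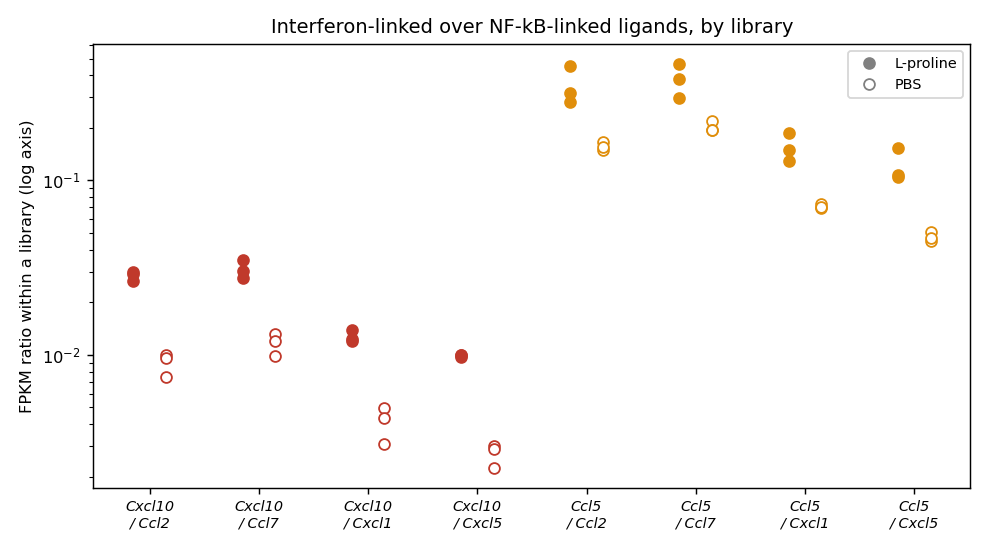
FPKM ratio of an interferon-linked over an NF-kB-linked member within each library, on a log axis, with L-proline filled and left and PBS open and right in each pair; red ratios have Cxcl10 on top and orange ratios Ccl5. In all 8 pairs the 3 L-proline points lie above the 3 PBS points.

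The order of levels, which FPKM allows to be compared between genes because it is per length, was the same by group means in both conditions: Cxcl5, Cxcl1, Ccl2, Ccl7, Cxcl12, Ccl5, Cx3cl1, Cxcl10 and Cxcl16. In L-proline libraries the ranges of Ccl2 and Ccl7 overlapped, and so did those of Cxcl12 and Ccl5, while in PBS libraries no neighbours in that order overlapped. Ccl5 was below Cxcl12 in each of the 6 libraries, and its ratio to Cxcl12, chosen after the values were seen, was 0.879 ± 0.0189 in L-proline and 0.342 ± 0.0206 in PBS (SD, n = 3 each). Cxcl5 and Cxcl1 made up 36.6% and 28.5% of the summed FPKM of the 9 members in L-proline libraries and 41.5% and 27.6% in PBS libraries. The share of Ccl5 was 4.43% in L-proline and 1.96% in PBS, and that of Cxcl10 0.362% in L-proline and 0.113% in PBS. The members together took 0.260% to 0.296% of all fragments in L-proline libraries and 0.249% to 0.262% in PBS libraries.

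Genes whose profile was nearest to a member were found as the smallest root mean square distance between log2(FPKM + 1) values over the 6 libraries, each gene centred on its own mean. For Cxcl10 these were Oas3 (0.0969), H2bc4 (0.0998) and Phf11d (0.109), which have log2 fold changes of 1.42, 1.37 and 1.52. For Ccl2 they were Rpp38 (0.0218), Utp18 (0.0252) and Pstpip1 (0.0327), which have log2 fold changes of 0.24, 0.20 and 0.17. Among the members, the nearest profiles were those of Ccl2 and Cxcl1 (0.0940), and Ccl5 and Cxcl10 lay 0.205 apart.

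Other chemokine ligands were mostly near 0: of 29 further ligands, 16 were listed and 4 were tested, of which 2 rose and 0 fell, beside 7.5% and 12.1% of all tested genes. Ccl8 (MCP-2), which lies near Ccl2 and Ccl7 on chromosome 11, had 43.6, 49.4 and 52.1 FPKM in L-proline libraries, against 22.0, 28.8 and 23.9 FPKM in PBS libraries, 0.94 ± 0.11 higher on the log2 scale (limma, adjusted p = 0.00155). Its ratio to Ccl2, chosen after the values were seen, was 0.206 ± 0.0389 in L-proline and 0.122 ± 0.01 in PBS (SD, n = 3 each). Ppbp, the CXCR2 ligand next to Cxcl5 on chromosome 5 in the GRCm38.p6 gene table, had 9.20, 6.18 and 8.39 FPKM in L-proline libraries, against 4.31, 4.63 and 4.55 FPKM in PBS libraries, 0.68 ± 0.13 higher on the log2 scale (limma, adjusted p = 0.01). Ccl9 and Mif, a chemokine-like ligand, did not pass, at log2 fold changes of 0.21 ± 0.11 and -0.10 ± 0.08. Cxcl9, an interferon gamma target that is known as a ligand of CXCR3 like Cxcl10 and was singled out after the values were seen, stood at 0.102 ± 0.0395 FPKM in L-proline and 0.0665 ± 0.0603 FPKM in PBS, on 2 to 15 fragments per library. How fragments that match close relatives among these ligands were assigned was not stated in the sources used.

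Most receptors for the members were absent from the table. Of 22 chemokine receptors 6 were listed and 1 was tested, and Ccr1, Ccr2, Cxcr2 and Cxcr3, receptors of several members, were not listed. The highest level in a library was 0.482 FPKM for Cxcr4, 0.196 FPKM for Cxcr6 and 0.116 FPKM for Cx3cr1. The tested receptor, Ackr3, an atypical receptor that takes up and degrades Cxcl12, had 27.0, 26.7 and 30.4 FPKM in L-proline libraries, against 39.5, 37.7 and 35.4 FPKM in PBS libraries. It fell without overlap of the groups, at -0.41 ± 0.08 on the log2 scale (limma, adjusted p = 0.0105), which became an adjusted p = 0.0555 without PBS 1. The ratio of Cxcl12 to Ackr3, chosen after the values were seen, was 3.33 ± 0.362 in L-proline and 2.48 ± 0.0232 in PBS (SD, n = 3 each).

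Of 12 genes whose products shed or trim chemokines, or regulate those that do, 8 were tested, 3 rose and 0 fell, beside 7.5% and 12.1% of all tested genes. Mmp2, a gelatinase known to trim Ccl7 and Cxcl12, was at 271 ± 24.4 FPKM in L-proline and 205 ± 2.61 FPKM in PBS (log2 fold change 0.40 ± 0.08; limma, adjusted p = 0.0101). Mmp14, the membrane protease that activates Mmp2, was at 186 ± 10.5 FPKM in L-proline and 146 ± 9.98 FPKM in PBS (0.35 ± 0.08; adjusted p = 0.0175), and its adjusted p ran from 0.0580 to 0.0820 without L-proline 2, PBS 1 or PBS 3. Rhbdf2, which guides the sheddase Adam17 to the cell surface, was at 11.5 ± 1.26 FPKM in L-proline and 8.04 ± 0.272 FPKM in PBS (0.47 ± 0.09; adjusted p = 0.0112). Timp3, an inhibitor of Adam17, was at 84.7 ± 7.52 FPKM in L-proline and 97.5 ± 3.67 FPKM in PBS and did not pass (adjusted p = 0.114). Adam10 and Adam17, which release Cx3cl1 and Cxcl16 from the membrane and were singled out after their values were known, did not pass, at 0.07 ± 0.13 and 0.17 ± 0.08 on the log2 scale.

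Most tested genes of the interferon response rose with Cxcl10 and Ccl5. The tested genes of a list induced by NF-kB and cytokines, which held none of the members, fell or did not pass. Among the NF-kB-linked members, in contrast, Ccl7 and Cxcl1 rose and none fell. Among interferon response genes, 24 of the 26 tested rose and 0 fell, beside 7.5% and 12.1% of all tested genes, with a median log2 fold change of 1.15. Ifit3, an antiviral effector induced by interferon, was at 127 ± 13.6 FPKM in L-proline and 16.9 ± 1.24 FPKM in PBS (log2 fold change 2.84 ± 0.09; limma, adjusted p = 1.54e-05). Of 13 tested NF-kB and cytokine-induced genes 8 fell and 0 rose, beside the same 12.1% and 7.5%, with a median of -0.49. The lipocalin Lcn2 was at 6.65 ± 1.42 FPKM in L-proline and 24.0 ± 3.62 FPKM in PBS (log2 fold change -1.71 ± 0.16). The adhesion molecule Vcam1 was at 44.9 ± 1.50 FPKM in L-proline and 75.7 ± 4.19 FPKM in PBS (-0.74 ± 0.07). The pentraxin Ptx3 was at 43.1 ± 6.76 FPKM in L-proline and 80.4 ± 8.09 FPKM in PBS (-0.89 ± 0.13), and the alarmin Il33 at 85.0 ± 24.9 FPKM in L-proline and 194 ± 34.6 FPKM in PBS (-1.20 ± 0.21). Tslp, Nos2, Ptgs2 and Il6 were the other 4 that fell, and in Ptgs2 and Il6 the groups overlapped. Ptgs2, Il6 and Nos2 each lost their call in some alternative settings. The count of 8 was 5 without L-proline 2 and 5 without PBS 1. The list of interferon response genes was drawn up with its rise in these libraries known and is not independent evidence of its direction. The NF-kB and cytokine-induced list was also chosen with earlier results of these data known, and the same limit holds for it.

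Of 19 tested genes of the NF-kB pathway itself 1 rose and 3 fell, a count near the 7.5% and 12.1% over all tested genes, with a median log2 fold change of -0.15. Tnfaip3 (A20), an NF-kB target whose product dampens the pathway, had 6.74, 6.65 and 6.19 FPKM in L-proline libraries, against 11.4, 10.7 and 11.5 FPKM in PBS libraries (log2 fold change -0.70 ± 0.08; limma, adjusted p = 0.00111). Its partner Tnip1 and the kinase Ikbkb fell by 0.46 ± 0.12 and 0.34 ± 0.07 on the log2 scale, calls lost without any 1 of the 3 PBS libraries, and the adaptor Traf2 rose by 0.50 ± 0.09. The subunit genes Rela, Nfkb1, Relb, Rel and Nfkb2, picked out with their values known, did not pass. They stood at 0.11 ± 0.09, 0.04 ± 0.08, 0.06 ± 0.09, -0.32 ± 0.23 and -0.22 ± 0.09 on the log2 scale. Of the 19 genes, Tnfaip3, Tnip1, Ikbkb, Nfkb2, Nfkbia, Nfkbib, Nfkbie and Nfkbiz were lower in L-proline without overlap of the groups. The same was so for 24% of all tested genes. Traf2, Bcl3 and Ikbkg were higher without overlap, as were 16% of all tested genes. Of these genes Nfkb2, Nfkbia, Nfkbib, Nfkbie, Nfkbiz, Bcl3 and Ikbkg did not pass. Of 9 genes for RNA-binding proteins that act on chemokine mRNAs, 2 fell and 0 rose, beside 12.1% and 7.5% of all tested genes. The list is too short to tell such a count from these shares. The 2 were Hnrnpd at -0.67 ± 0.11 and Khsrp at -0.31 ± 0.07, decay factors of AU-rich transcripts. Khsrp lost its call with median-of-ratios scaling (adjusted p = 0.0505) and without any 1 of the PBS libraries. Tia1, which represses translation of such mRNAs, had a log2 fold change of -0.46 ± 0.16 and did not pass (adjusted p = 0.0761).

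**Figure D4:**
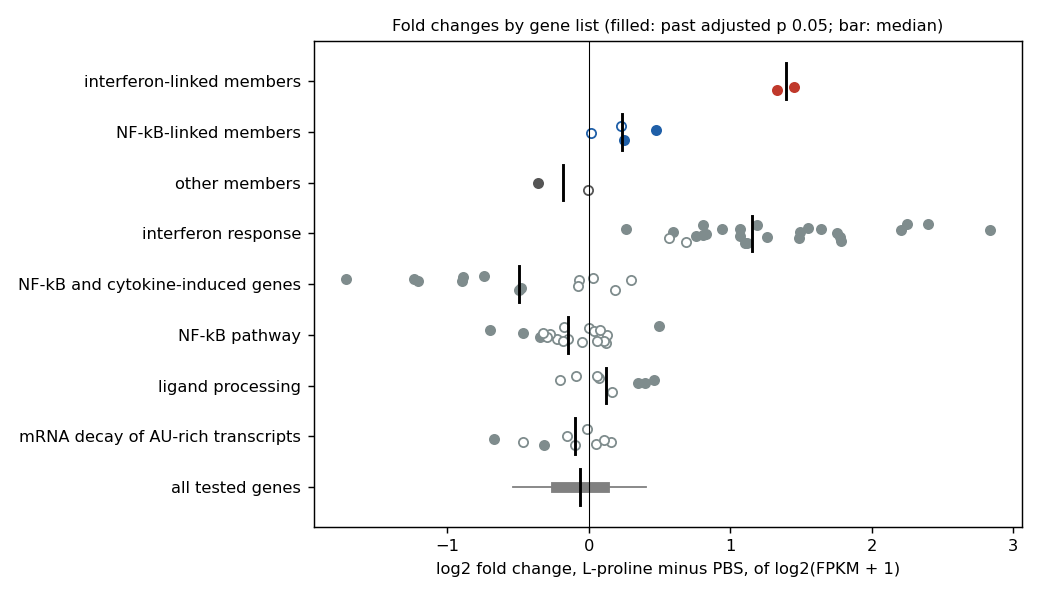
Log2 fold changes, L-proline minus PBS, of the tested genes of each list (filled points passed an adjusted p of 0.05, bars are medians), with the 25th to 75th percentile (thick line) and 5th to 95th percentile (thin line) of all tested genes at the bottom. Interferon response genes lie to the right of 0, where the 2 interferon-linked members also lie, and 8 filled points of the NF-kB and cytokine-induced list lie to the left of it.

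Levels of markers of cells that could bring chemokines were set beside these changes. Of 12 macrophage markers 7 were listed, with summed levels of 23.1 to 26.8 FPKM in L-proline libraries and 21.6 to 23.7 FPKM in PBS libraries; Adgre1, Fcgr1, Itgam, C1qa and C1qb were not listed. Of the 4 macrophage markers tested, 1 rose and 0 fell, beside 7.5% and 12.1% of all tested genes. The 1 that rose was Cd68, a lysosomal protein also found in other cells. Cd68 was at 5.19 ± 0.297 FPKM in L-proline and 3.17 ± 0.536 FPKM in PBS (log2 fold change 0.57 ± 0.11, limma, adjusted p = 0.0101). Cd14, Lyz2 and Mertk did not pass, at 0.08 ± 0.10, 0.10 ± 0.18 and -0.20 ± 0.10 on the log2 scale. Of 10 endothelial markers 6 were listed, none above 0.822 FPKM in any library. Of 8 neutrophil markers 4 were listed, none above 0.710 FPKM, and of 6 B cell markers 2 were listed, none above 0.507 FPKM. Of 9 mesothelial and epithelial markers 3 were listed and 2 were tested, Msln and Krt19. Both fell, by 0.88 ± 0.07 and 0.93 ± 0.09 on the log2 scale, where 12.1% of all tested genes fell. Of the fibroblast markers 3 rose and 2 fell, of 9 tested, and of 6 tested pericyte and smooth muscle markers 0 passed, beside 19.6% of all tested genes called in either direction. Pericyte and smooth muscle markers had summed levels of 1051 to 1272 FPKM in L-proline libraries and 1168 to 1299 FPKM in PBS libraries, most of it from Acta2. Cardiomyocyte markers had summed levels of 16.8 to 19.96 FPKM in L-proline libraries and 34.8 to 36.5 FPKM in PBS libraries, most of it from Tnnt2. Of the 2 tested cardiomyocyte markers, Tnnt2 fell, at -1.09 ± 0.09 on the log2 scale (limma, adjusted p = 0.000326). The other, Nkx2-5, did not pass, at -0.03 ± 0.09. The part of these cells in the chemokine changes was not tested.

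**Figure D5:**
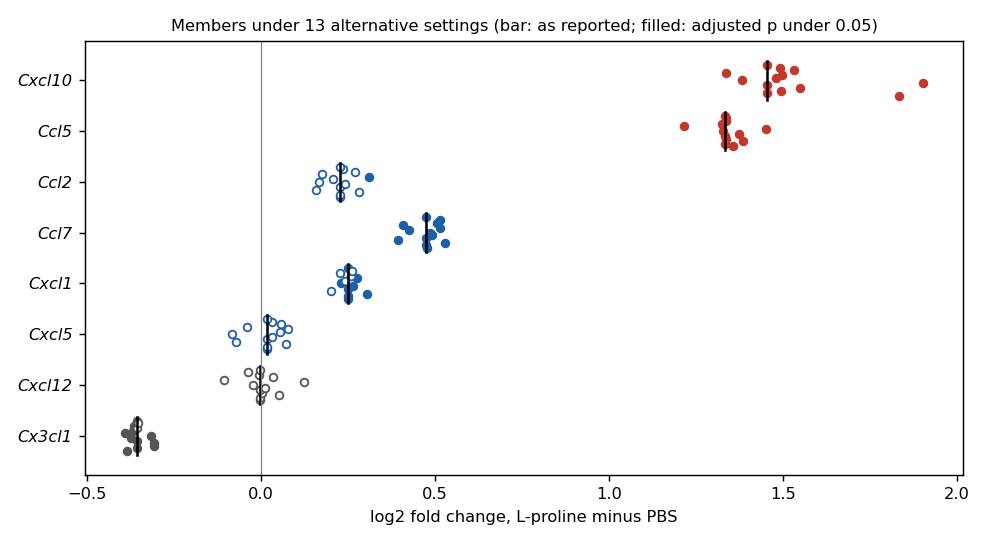
Log2 fold changes of the 8 tested members, L-proline minus PBS, as reported (black bar) and under 13 alternative settings (points, filled where the adjusted p was under 0.05). Points of Cxcl10, Ccl5 and Ccl7 are filled throughout, Cxcl1 and Cx3cl1 are filled in 8 and 11 of 13, and those of Cxcl5 and Cxcl12 fall on either side of 0.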

How the data were processed

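RNA of 6 libraries (3 L-proline, 3 PBS; groups and replicate numbers from the sample titles) was read from 1 deposited table. Its values are FPKM made by the authors, per the file headers; HISAT2, HTSeq 0.13.5 and build GRCm39 are named in the submitters' processing notes without a role, and how genes were chosen for the table was not stated. FPKM depends on the gene model and on a library's other abundant genes.

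Log2(FPKM + 1) values were compared in limma 3.58.1 (R 4.3.3; two-sided moderated test, variance prior following the mean) over the 10500 genes with a mean of at least 1 FPKM, with Benjamini-Hochberg adjustment over all of them and a threshold of 0.05. "Rose" and "fell" mean past that threshold. The scripts were tested on simulated data. Whole fragments were solved from the FPKM steps, with library totals from 13 mitochondrially encoded genes, and gave whole numbers within 0.01 for 14407 of 14408 genes; they were used for depth and for voom. RefSeq tables (GRCm38.p6) gave promoters, chromosomes and neighbours, and 14145 of the listed symbols matched. The library kit named in the labels' protocols does not mark strand, so reads of overlapping genes on opposite strands cannot be told apart.

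The members, the lists and the tests were chosen with earlier results of these data known. Named are all members, tested receptors, up to 4 tested genes with the smallest p of each other list, cell type markers for their level, the 3 genes nearest in profile to Cxcl10 and to Ccl2, and genes the text gives as picked with values known. Alternatives were another pseudocount, no filter, 2 other scalings, a robust variance model, voom, the replicate block and each library left out.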

Additional observations from a re-analysis of the deposited data

How the results depend on the processing

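Calls on Cxcl10, Ccl5 and Ccl7 held in all 13 alternatives, with log2 fold changes of 1.34 to 1.90, 1.22 to 1.45 and 0.39 to 0.53. The call on Cxcl1 was lost with quantile normalization (log2 fold change 0.20, adjusted p = 0.1), and leaving out libraries gave 0.23 to 0.28 (limma, adjusted p from 0.0273 to 0.0945). Leaving out libraries gave -0.39 to -0.32 for Cx3cl1 (adjusted p from 0.0228 to 0.0763) and 0.17 to 0.31 for Ccl2 (adjusted p from 0.0404 to 0.342). The sign of Cxcl5 turned with quantile normalization (-0.0707), and leaving out libraries gave -0.0828 to 0.0763. That of Cxcl12 turned with median-of-ratios scaling (0.0514), quantile normalization (0.00139) and voom (0.0110), and leaving out libraries gave -0.11 to 0.12; neither gene was called in any alternative. The number of members called was 3 to 6 with libraries left out, lowest without PBS 1 or PBS 3. The number of all genes called was 870 to 2762 with libraries left out, against 2056, with 968 without PBS 1, 870 without PBS 3 and 2762 without L-proline 1. The difference between the median log2 fold changes of interferon-linked and NF-kB-linked members, 1.16, was 1.36 with a pseudocount of 0.1, 1.39 with voom and 1.07 to 1.24 with libraries left out. NF-kB and cytokine-induced genes called lower numbered 5 to 8 with libraries left out. Il6 and Ptgs2, among the 8 that fell, lost their call in several alternatives, with adjusted p up to 0.174 and 0.149. Nos2, also among the 8, lost its call without L-proline 2, PBS 1 or PBS 2 (adjusted p = 0.0555, 0.0708 and 0.0565). The cause of these changes was not tested.

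With the replicate number as a block, 2383 genes and 5 members were called. Same-numbered libraries did not all deviate together (correlations of 0.65, 0.42 and -0.35), so the numbers were not taken as pairs. With 3 libraries a group, a member that did not pass may still have changed within its interval, and Cxcl16 is limited by its few fragments.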

Other observations

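Some low genes of the lists, picked out after their values were seen and below the level at which genes were tested, had groups that did not overlap. The same was so for 40.1% of all tested genes, and the share among genes below that level was not counted. Not all such low genes are given here. Ccl4, a chemokine ligand of the same family as Ccl5, had 27, 16 and 12 fragments in L-proline libraries, against 7, 4 and 7 in PBS libraries. Icam1, an adhesion molecule induced by NF-kB and interferon gamma, had 20, 26 and 12 fragments in L-proline libraries, against 3, 8 and 5 in PBS libraries. The gelatinase gene Mmp9 was at 1.06 ± 0.145 FPKM in L-proline and 0.455 ± 0.136 FPKM in PBS (SD, n = 3 each). The cytokine genes Tnf and Il1a lay the other way: Tnf had 3, 4 and 2 fragments in L-proline libraries, against 6, 18 and 12 in PBS libraries, and Il1a had 53, 12 and 35 fragments in L-proline libraries, against 96, 60 and 83 in PBS libraries.

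Picked out likewise, the stromal growth factor gene Csf1, which sustains macrophages, stood at 189 ± 9.31 FPKM in L-proline and 166 ± 6.46 FPKM in PBS (SD, n = 3 each), a log2 fold change of 0.19 ± 0.07 that did not pass (limma, adjusted p = 0.0834), and its receptor gene Csf1r did not exceed 0.274 FPKM in any library. The acute phase gene Saa3, at 1309 ± 335 FPKM in L-proline and 1049 ± 166 FPKM in PBS, did not pass either (limma, adjusted p = 0.280).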
